A study of Bos taurus with 15 samples.

Results

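Macrophages of the AD bovine intestine were taken as the barcodes that carried complement C1q. From the duodenum, jejunum, cecum and colon libraries of AD cattle, a barcode was kept if it held 500 to 4000 genes and under 50000 UMIs, and it was a member if it also held at least 1 UMI each of C1QA and C1QB and none of CD3E or EPCAM. This rule found 5558 members among 40458 kept barcodes, with 1031 in the duodenum, 4122 in the jejunum, 181 in the cecum and 224 in the colon. A UMI is a tag that marks 1 captured RNA molecule, and CPM below is a gene's UMIs summed over the members of a library and scaled to 1000000 UMIs of all genes in them.

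The series profiled digestive and other organs of NB and AD Holstein cattle by droplet single-cell RNA sequencing with 10x Genomics 3′ chemistry. Of its 15 libraries, 4 were AD and 11 were NB. All AD libraries came from 1 lactating dairy cow, and each segment gave 1 library per stage. The NB libraries came from newborn calves that the labels do not tie to single libraries.

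In AD cattle, the duodenum and cecum were dissociated for 30 min with the Lamina Propria Dissociation Kit, and the jejunum and colon for 41 min with the Multi Tissue Dissociation Kit 2. The kit was thus crossed with the part of the intestine: each kit was used for 1 small and 1 large intestinal segment. NB intestine was treated with EDTA and then trypsin before the lamina propria kit. There were no replicates of a segment within a stage, and no test between segments or stages was run. The 95% intervals given here, exact Poisson for CPM and exact binomial for shares, cover counting error only. They leave out the spread between animals or preparations, and for CPM also the spread between cells. Differences between AD and NB cattle cannot be told apart from differences between animals and dissociations.

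Intestinal macrophages lie mainly in the lamina propria under the epithelium. They take up microbes and dying cells, digest them in lysosomes and present peptides on MHC class II, and in the healthy gut they do so with little inflammatory cytokine. Many are replaced from blood monocytes throughout life. C1q, which is made of the C1QA, C1QB and C1QC chains, starts the classical complement pathway and is produced in most tissues by macrophages.

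Adult libraries held 48674267 to 67485845 UMIs in all. Members had median depths of 2386 UMIs in the duodenum, 2706.5 in the jejunum, 2443 in the cecum and 3211.5 in the colon, below the medians of 3729, 4733, 3715 and 3979 UMIs of the other kept barcodes. The median share of mitochondrial UMIs was 4.08% to 4.78%. No member barcode occurred in more than 1 AD library.

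The share of kept barcodes that met the rule was highest in the jejunum. It was 9.93% (9.36% to 10.5%) in the duodenum, 37.2% (36.3% to 38.1%) in the jejunum, 1.88% (1.61% to 2.17%) in the cecum and 2.40% (2.10% to 2.73%) in the colon. Barcodes with at least 1000 UMIs were also thinned to 1000 UMIs and the whole rule was applied again. The shares were then 9.71%, 37.8%, 1.96% and 2.45%, which kept the order of the segments. A barcode that lost its UMIs of CD3E or EPCAM in thinning could become a member, so these are not shares of the same members. In the NB libraries of the same segments the rule took 7.30%, 23.0%, 12.3% and 8.91% of kept barcodes, so the jejunum was highest at both stages. These shares are a description, because the members were chosen by their UMIs of C1QA, C1QB, CD3E and EPCAM. Both chains were also found in 14.2% of CD3E-positive barcodes in the jejunum, against 2.89% in the duodenum, 0.704% in the cecum and 0.864% in the colon. In segment order, the CD3E-positive barcodes with both chains held medians of 20.5, 39, 46 and 50.5 UMIs of C1QA, against 30, 50, 61 and 47 in members. The source of their C1q RNA and the part of free C1q RNA in the member counts were not tested.

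**Figure D1:**
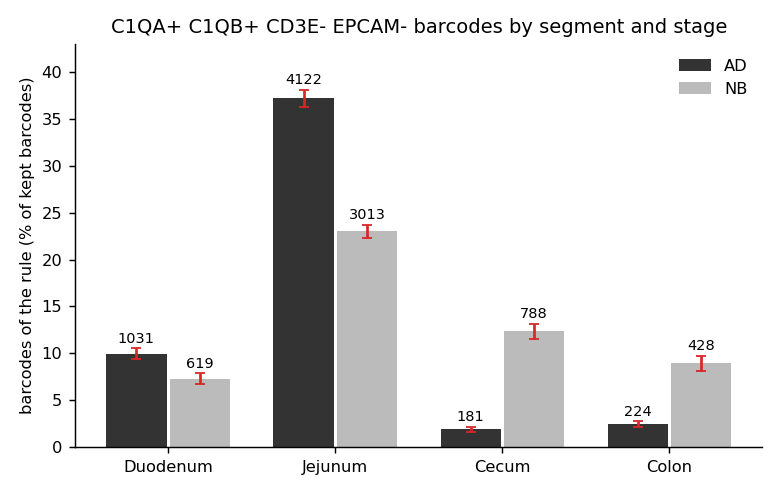
Share of kept barcodes (%) that met the rule in each AD and NB library, with exact binomial 95% intervals that cover counting error only. The AD jejunum stands highest at 37.2% and the AD cecum lowest at 1.88%.

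Few members sat at the C1q edge of the rule. In segment order, 43, 115, 6 and 9 members held a single UMI of their scarcer chain, and CSF1R was found in 34.9%, 33.9%, 83.3% and 33.3% of them. Just outside were 133, 665, 28 and 34 barcodes with UMIs of 1 chain only, of which 7.52%, 12.8%, 7.14% and 2.94% held CSF1R. The CD3E condition removed 214, 611, 58 and 70 barcodes that carried both chains, and the EPCAM condition removed 3, 57, 0 and 3. The lower gene limit left out 277, 995, 46 and 42 barcodes that met the conditions on C1QA, C1QB, CD3E and EPCAM but held under 500 genes.

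Macrophage genes that the rule did not use were high in every segment. C1QC, the remaining C1q chain, was at 7348 CPM in the duodenum, 10522 in the jejunum, 12582 in the cecum and 9641 in the colon, against 61.2 to 574 CPM in the other kept barcodes. CSF1R, the receptor for the growth factor that macrophages need to survive, was at 705 (677 to 734), 749.9 (736 to 763), 878 (808 to 952) and 834 (781 to 889.8) CPM. After thinning to 1000 UMIs, which left out 13, 28, 2 and 4 members, CSF1R was found in 44.9%, 50.3%, 50.8% and 49.5% of members and in 0.8%, 5.22%, 0.292% and 0.421% of CD3E-positive barcodes, whose median depths were 3642, 4148.5, 3653 and 3924 UMIs. Of the 5558 members, 5525 held CSF1R, CD68, AIF1 or TYROBP. No such count is given for other barcodes, so it does not by itself separate macrophages from other cells or free RNA. All 13 tested genes of a list of tissue macrophage markers stood higher in members than in the other kept barcodes of all 4 libraries. "Tested" here means a mean of at least 20 CPM over the 4 libraries, which 4777 genes reached, and 1651 of these genes stood higher in members in the same way.

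Macrophage genes were thus found in most members, but part of the members also carried genes of other lineages. Clustering of the 5558 members gave 12 clusters, of which 6 had at least 3 markers of another lineage at 2 or more times the level of the remaining members. They were led by monocyte and stromal genes (166 members), epithelial genes (159), plasma cell genes (98), B cell genes (81) and, in a pair of clusters of 56 and 47 members, dendritic cell genes such as FCER1A and FLT3 or CLEC9A and IDO1. Removing all 6 left 4951 members and took out 6.21% of the duodenum, 11.9% of the jejunum, 12.7% of the cecum and 12.9% of the colon members. The cluster of 166 members was mixed. CSF1R was found in 86.7%, C1QC in 94.6% and COL3A1 in 3.61% of its members. Across the 6 clusters, C1QC was found in 70.2% to 98.7% and CSF1R in 53.2% to 86.7% of members. In the cluster led by epithelial genes they were at 9888 and 622 CPM, near the 11605.5 and 693 CPM of the largest cluster. Removing the 6 clusters thus also took out members with macrophage genes. Levels without these clusters are given below for many of the named genes, among them those that fell most. No doublet caller was run.

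Plasma cell transcripts were also counted in members. JCHAIN, the chain that joins IgA units, was at 8071 CPM in the duodenum, 6493 in the jejunum, 2081 in the cecum and 4103 in the colon members. In the other kept barcodes it was higher in each segment, at 36013, 16040, 8014 and 8393 CPM. It fell to 746, 597, 95.6 and 693 CPM in members without the clusters led by other lineages, so most of it lay in those clusters.

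The main genes of antigen presentation were at like levels in the 4 segments. CD74, the invariant chain of MHC class II, was at 52966, 45462, 49007 and 42195 CPM in the duodenum, jejunum, cecum and colon. BOLA-DRA, the bovine class II alpha chain, was at 26503, 26139, 25609.7 and 19385 CPM, lowest in the colon. None of the 7 tested class II genes and none of 24 lysosomal genes met the call used for segment comparisons, in which the nearest libraries of the 2 sides differed at least 2-fold with separate intervals. Calls were also rare over all 4777 tested genes, at 0.816% for large and 0.314% for small intestine, so these counts do not set the lists apart. The class II list had a median log2 difference of -0.11 between large and small intestine. The lysosomal list had a median of 0.01, beside 0.04 over all tested genes. CTSS, a protease that trims the invariant chain, ranged only from 4192 CPM in the duodenum to 4705 CPM in the colon.

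Receptors for dead cells and debris were present in each segment. TIMD4, a receptor for phosphatidylserine on dying cells, was at 902 CPM in the duodenum, 761 in the jejunum, 629 in the cecum and 669 in the colon. AXL, a kinase receptor with the same class of cargo, was at 193, 242, 225 and 276 CPM. MRC1, the mannose receptor, was at 264, 301, 364 and 367 CPM. These 3 receptors differed by less than 2-fold between any segments. CD163, which takes up haptoglobin and hemoglobin, was low, at 20.0 (15.5 to 25.4), 44.4 (41.2 to 47.8), 65.5 (47.6 to 87.9) and 79.2 (63.5 to 97.6) CPM. It did not reach the 2-fold limit between the nearest libraries. The inducible nitric oxide synthase NOS2 stood at 0 to 1.79 CPM, and S100A9, a calcium-binding protein of monocytes and neutrophils, at 0 to 1.59 CPM. S100A9 does not speak for the monocyte list. Of its 4 tested genes, 3 stood higher in members than in the other kept barcodes of every library, and 1651 of all 4777 tested genes did so. PLAC8, another monocyte marker, was at 630, 763, 298 and 612 CPM in segment order without the clusters led by other lineages.

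**Figure D2:**
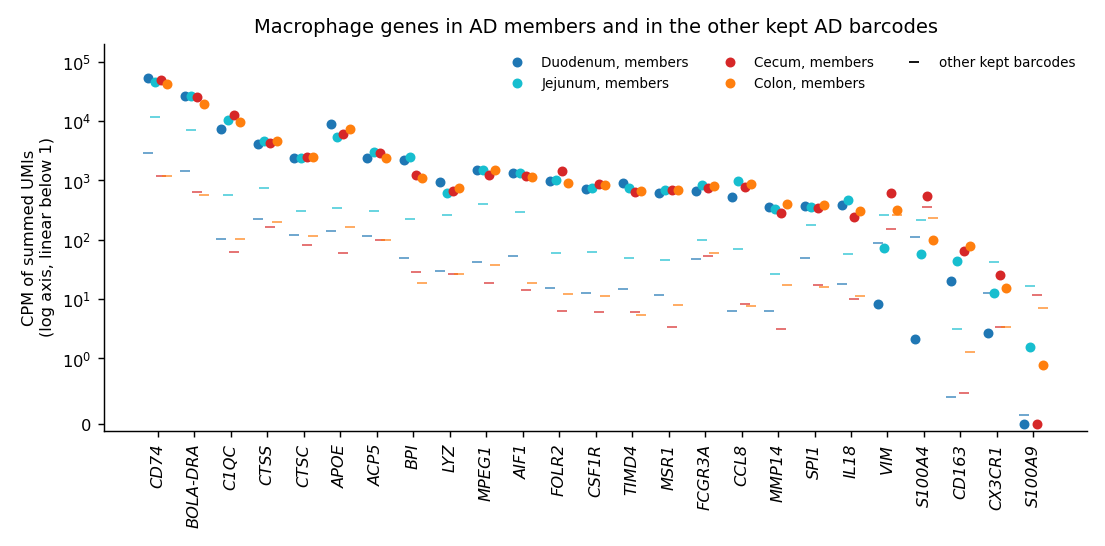
CPM (log axis, linear below 1) of macrophage and related genes in AD members of each segment, with dashes for the other kept barcodes of the same library in the segment's color. C1QC lies at 7348 to 12582 CPM and CSF1R at 705 to 878 CPM in members, above the other barcodes in each library, whereas S100A9 is at 0 to 1.59 CPM in members.

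Large and small intestine were then compared as pairs of segments. In the cecum and colon members, 39 of 4777 tested genes (0.816%) were higher than in both small intestinal libraries, and 15 genes (0.314%) were higher in the duodenum and jejunum. Of the 39, 33 stood above the other kept barcodes of the same large intestinal libraries, and of the 15, 5 stood above those of the small intestinal libraries. The cecum and colon values rest on 181 and 224 members. For 23 of the 39 genes and 8 of the 15, over 50% of the UMIs in at least 1 of the higher libraries came from 5 cells. Without the clusters led by other lineages, 28 genes were higher in large and 11 in small intestine, of which 23 and 9 were among the 39 and 15.

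The higher genes of the large intestine included some that were spread over many members. ALOX5AP, which presents arachidonic acid to 5-lipoxygenase in leukotriene synthesis, was at 62.7 (54.5 to 71.8) CPM in the duodenum, 48.4 (45.1 to 52.0) in the jejunum, 306 (266 to 351) in the cecum and 213 (187 to 242) in the colon. It was found in 5.11%, 4.47%, 21.2% and 17.3% of members thinned to 1000 UMIs, against 0.203% to 1.12% of CD3E-positive barcodes. Both large intestinal levels thus lay at least 3.40-fold above both small intestinal ones. CCR1, a receptor for the inflammatory chemokines CCL3 and CCL5, was at 12.8, 11.6, 68.4 and 90.0 CPM in the same order. PMP22, a membrane protein best known from myelin, was at 5.37 (3.18 to 8.49), 3.11 (2.30 to 4.11), 84.8 (64.2 to 109.9) and 62.1 (48.3 to 78.6) CPM. Its ratio between the nearest libraries was 11.6-fold, and it was higher in the large intestine in the other kept barcodes too, at 28.8 and 16.0 CPM in the cecum and colon against 0.461 and 1.32 CPM in the duodenum and jejunum.

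Metallothionein genes were in this group as well. MT1A, a metallothionein that binds zinc and copper, was at 50.5 CPM in the duodenum, 27.3 in the jejunum, 179 in the cecum and 231 in the colon, and 55.8% of its UMIs in the cecum came from 5 cells. A second locus, MT1E (ENSBTAG00000001595), was at 8.66, 10.1, 43.1 and 35.1 CPM. Metallothionein genes are near copies of each other, so reads may be split between them. Of 15 tested lipid genes and 14 matrix genes, 1 each was called for the large intestine, PLTP and F13A1, with list medians of 0.07 and 0.26. Over all 4777 tested genes 0.816% were called and the median was 0.04, and a single call does not set a list apart. PLTP, the phospholipid transfer protein, was at 69.0, 119, 249.9 and 482 CPM, and at 76.0, 134, 250.4 and 455 CPM without the clusters led by other lineages, where it no longer reached 2-fold. ADAMTS2, a protease that trims procollagen, was at 4.18, 15.3, 55.0 and 52.2 CPM. AHNAK, a large scaffold protein, was at 98.2, 84.7, 402 and 343 CPM. Its level depended in part on the clusters led by other lineages. Without these clusters AHNAK fell to 235 and 249 CPM in the cecum and colon. It stayed above the 99.4 and 71.3 CPM of the duodenum and jejunum. STAB1, a scavenger receptor, was at 62.7, 121, 367 and 240.3 CPM and missed the 2-fold limit between the colon and jejunum. It was at 69.9, 137, 375 and 285 CPM without the clusters led by other lineages and then met the call.

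Other genes of this group came largely from few cells. F13A1, the catalytic subunit of coagulation factor XIII, was at 0.597 CPM in the duodenum, 19.2 in the jejunum, 367 in the cecum and 134 in the colon, and 71.7% of its cecum UMIs lay in 5 cells. Without the clusters led by other lineages it was at 0.339, 3.77, 47.8 and 52.9 CPM, and it was still higher in both large intestinal segments. VIM, the gene of the intermediate filament vimentin, fell as F13A1 did when they were removed. It was at 8.36, 72.5, 611 and 314 CPM in all members and, without these clusters, at 7.13, 10.3, 80.3 and 52.9 CPM. RNASE4, a secreted ribonuclease, was at 3.28, 27.5, 457 and 248 CPM, but at 0.339, 11.4, 9.56 and 34.8 CPM without them, so that the cecum no longer exceeded the jejunum. C3, the central complement component, did the same: it was at 3.28, 6.72, 38.7 and 77.4 CPM, and at 2.71, 5.93, 1.91 and 16.8 CPM without those clusters. DEFB10, a beta-defensin, was at 5.97, 0, 65.5 and 55.8 CPM, all of it from 5 or fewer cells a library.

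**Figure D3:**
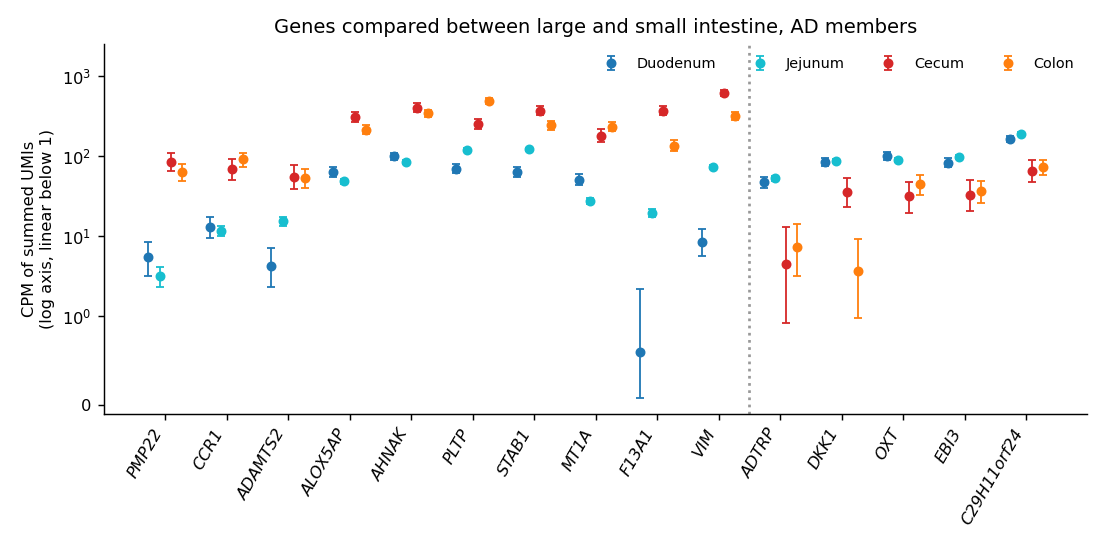
CPM (log axis, linear below 1) in AD members of genes compared between large (left of the dotted line) and small intestine (right of it), with exact Poisson 95% intervals. All but STAB1 met the call among all members. PMP22 lies at 3.11 to 5.37 CPM in small and 62.1 to 84.8 CPM in large intestine, and ADTRP at 47.2 to 52.3 CPM in small and 4.46 to 7.20 CPM in large intestine.

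Of the 15 genes higher in the small intestine, FABP2, a fatty acid carrier of enterocytes, had a ratio of 26.0 between the nearest libraries but was not above the other kept barcodes. It was at 77.3, 212, 2.98 and 1.80 CPM in members, and at 35.3, 89.6, 3.82 and 1.2 CPM without the clusters led by other lineages, where it was still called. The following 5 genes were above the other kept barcodes of both small intestinal libraries. ADTRP, a membrane hydrolase of lipid esters, was at 47.2 (40.1 to 55.1) CPM in the duodenum, 52.3 (48.7 to 55.9) in the jejunum, 4.46 (0.92 to 13.0) in the cecum and 7.20 (3.11 to 14.2) in the colon. Its large intestinal values rest on 3 and 8 UMIs. DKK1, a secreted inhibitor of Wnt signaling, was at 84.8, 85.5, 35.7 and 3.60 CPM, so the cecum lay between the small intestine and the colon. For the remaining genes the cecum and colon lay close together, with overlapping intervals. EBI3, a subunit shared by IL-27 and IL-35, was at 82.4, 97.1, 32.7 and 36 CPM. OXT, the oxytocin precursor, was at 99.4, 89.5, 31.2 and 44.1 CPM. C29H11orf24 was at 163, 190.0, 65.5 and 72.0 CPM. These 5 genes were still higher in both small intestinal libraries without the clusters led by other lineages.

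None of 11 tested antimicrobial genes was called between large and small intestine, and their median log2 difference was -0.14. Over all tested genes, 0.816% were called for large and 0.314% for small intestine, and the median was 0.04. The count therefore does not set this list apart. The list did not hold the beta-defensin genes DEFB10 and EBD, which were called for the large intestine. MPEG1, a pore-forming protein of phagosomes, was at 1521, 1488, 1245 and 1505 CPM. Some genes of the defense, heme and cytokine lists had higher small intestinal levels without meeting the call. BPI, a protein that binds bacterial lipopolysaccharide, was at 2244 CPM in the duodenum and 2451 in the jejunum, against 1244 in the cecum and 1106 in the colon. HMOX1, which breaks down heme, was at 748, 589.5, 403 and 333 CPM. CLEC6A, a lectin that recognizes fungal mannans, was at 357, 338, 128 and 242 CPM. In these 3 genes both small intestinal levels lay above both large intestinal ones, and this was so for IL18 too. This cytokine, which inflammasomes activate, was at 394, 477, 242 and 307 CPM. CCL4, a chemokine for T cells and monocytes, was called, at 169, 173, 68.4 and 50.4 CPM. It was higher still in the other kept barcodes of each library (225, 338, 954 and 1552 CPM), and without the clusters led by other lineages it was at 26.1, 89.2, 47.8 and 21.6 CPM and no longer called.

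FOS, FOSB and DUSP1 were the 3 of 14 tested genes of an immediate-early list that were higher in both large intestinal libraries. Over all 4777 tested genes the share was 0.816%. The list's median log2 difference was 0.81, beside 0.04 over all tested genes. Immediate-early transcripts rise quickly after stress and tissue dissociation. FOS was at 45.4, 61.6, 155 and 139.5 CPM in members of the duodenum, jejunum, cecum and colon, and at 236, 129.9, 192 and 426 CPM in other kept barcodes. Summed over the list, members reached 1613, 1903, 2770 and 3568 CPM and the other kept barcodes 5571, 3693, 6078 and 11740 CPM. None of the 3 met the call once the clusters led by other lineages were removed. FOS was then at 43.4, 48.5, 51.6 and 88.9 CPM. FOSB was at 22.1, 12.7, 42.0 and 74.5 CPM and DUSP1 at 70.2, 83.8, 161 and 166 CPM, both still higher in the large intestine but under 2-fold between the nearest libraries.

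Of 20 listed genes of the cell cycle, 7 reached the limit of 20 CPM and were tested. Of these, 4 (TOP2A, BIRC5, STMN1 and CENPF) were higher in both large intestinal libraries. The list's median log2 difference was 1.26, beside 0.04 over all tested genes, of which 0.816% were called for the large intestine. TOP2A, which untangles DNA in dividing cells, was at 9.25 (6.29 to 13.1) CPM in the duodenum, 19.2 (17.1 to 21.4) in the jejunum, 38.7 (25.3 to 56.7) in the cecum and 55.8 (42.8 to 71.5) in the colon. MKI67, another marker of dividing cells that was below the test limit, did not follow it, at 19.7, 16.7, 14.9 and 21.6 CPM. The limit is on the mean over the 4 libraries, and TOP2A passed it through its large intestinal levels. The count and the list median thus depend in part on the limit and do not speak for the whole list. The cecum value of TOP2A rests on 26 UMIs, all of them in 5 or fewer cells. In 1 of the large intestinal libraries, 5 cells held 95.2% of the UMIs of CENPF, 93.1% of those of BIRC5 and 68.7% of those of STMN1. These genes were among the leading genes of a cluster of 128 members, which was not among the clusters removed elsewhere, so that the removal did not bear on them.

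The 2 dissociation kits divided the segments differently. In the jejunum and colon, 16 of 4777 genes (0.335%) were higher than in the duodenum and cecum, and no gene was higher in the duodenum and cecum (0%). Without the clusters led by other lineages there were 13 genes, of which 9 were among the 16. For 8 of the 16, over 50% of the UMIs in at least 1 of the higher libraries came from 5 cells. Of the 16, 7 stood above the other kept barcodes of the jejunum and colon libraries, and the highest ratios among those of them with a symbol were those of CXCL11, CXCL9 and CXCL10, chemokines that attract T cells through CXCR3. CXCL9 was at 469 (446 to 492) CPM in the duodenum, 2972 (2945 to 2999) in the jejunum, 238 (203 to 278) in the cecum and 4600.1 (4475 to 4728) in the colon. It was found in 7.17%, 31.6%, 4.47% and 35.9% of members thinned to 1000 UMIs, against 0.176%, 5.6%, 0.0486% and 0.31% of CD3E-positive barcodes. The duodenum and cecum thus had few CXCL9-positive members. In segment order, 58.7%, 6.52%, 95% and 45.8% of the CXCL9 UMIs came from 5 cells. CXCL10 was at 180.3, 842, 66.9 and 980.1 CPM and CXCL11 at 23.9, 178, 22.3 and 615 CPM, and in the colon 63.7% and 81.7% of their UMIs came from 5 cells. All 3 genes kept their order of kits without the clusters led by other lineages, where the colon levels were 3066 CPM for CXCL9, 553 for CXCL10 and 105 for CXCL11. In the RefSeq gene order CXCL10 and CXCL11 are neighbors, with 1 coding gene between CXCL9 and CXCL10.

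CXCL9 and CXCL10 were detected together in part of the members. After thinning, CXCL10 was detected in 17.8%, 43.6%, 12.5% and 25.3% of CXCL9-positive members of the duodenum, jejunum, cecum and colon and in 5.40%, 14.4%, 2.92% and 4.26% of the remaining members. The shares of CXCL9-positive members are 13 of 73, 565 of 1295, 1 of 8 and 20 of 79, so the cecum value rests on 1 cell. This is a description of cells that share a library.

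Genes that respond to interferon followed the chemokines in part. Of 16 tested, 4 were higher in both the jejunum and colon, IRF1, ISG15 and WARS1 among them, beside 0.335% of all 4777 tested genes. The list's median log2 difference of jejunum and colon over duodenum and cecum was 0.56, beside 0.03 over all tested genes. IRF1, a transcription factor induced by interferon gamma, was at 65.4 (57.0 to 74.6), 181 (174 to 187), 72.9 (53.9 to 96.4) and 181 (157 to 208) CPM in segment order. The other kept barcodes had 107, 214, 112 and 157 CPM, so the same 2 libraries were higher outside the members. IRF1, ISG15 and WARS1 were no longer called without the clusters led by other lineages, but each stayed higher in the jejunum and colon. IRF1 was then at 64.8, 162, 49.7 and 127 CPM and WARS1 at 68.6, 135, 51.6 and 119 CPM. Both were under 2-fold between the nearest libraries. ISG15 was at 8.14, 16.8, 5.73 and 30.0 CPM, with a mean below the expression limit of a call. IDO1, which degrades tryptophan, was at 9.85, 56.2, 0 and 143 CPM, and 78.0% of its UMIs in 1 of the higher libraries came from 5 cells. With the clusters led by other lineages removed it was at 10.2, 28.3, 0 and 62.5 CPM and still called.

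IFI6 did not follow the kits. This target of type I interferon was at 156, 248, 353 and 684 CPM, and its cecum level exceeded the jejunum level. IFNG, the interferon that induces CXCL9, was at 30.9, 90.9, 64.9 and 153 CPM in CD3E-positive barcodes of the duodenum, jejunum, cecum and colon. Its part, and that of the kit, in the CXCL9 levels was not tested. Complement factor I, CFI, which inactivates C3b and was chosen after its values were seen, was at 14.3, 76.3, 10.4 and 59.4 CPM.

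**Figure D4:**
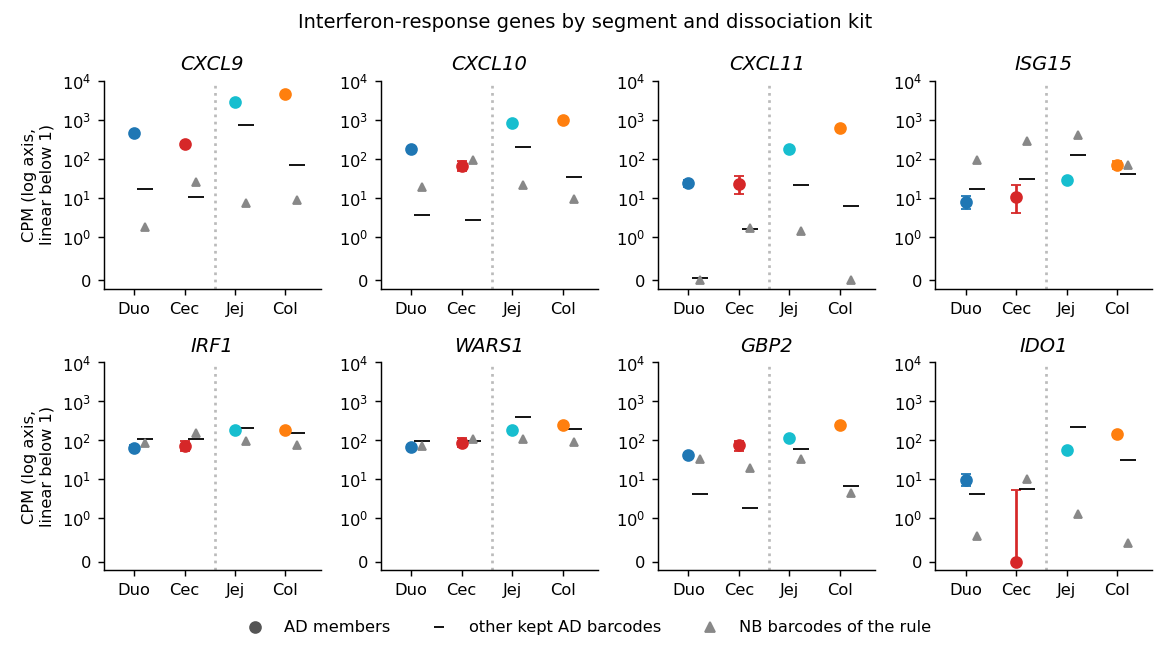
CPM (log axis, linear below 1) of interferon-induced chemokines and interferon-stimulated genes in AD members by segment (colored points, exact Poisson 95% intervals), in the other kept AD barcodes (dashes) and in NB barcodes of the rule (triangles); the dotted line separates the kits. CXCL9 lies at 2972 and 4600.1 CPM in the jejunum and colon (Multi Tissue Dissociation Kit 2) and at 469 and 238 CPM in the duodenum and cecum.

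Single segments stood out in few genes. A gene at least 2-fold above each of the other 3 segments with separate intervals was found 5 times for the duodenum (0.105%), 10 times for the jejunum (0.209%), 12 times for the cecum (0.251%) and 36 times for the colon (0.754%). None of the 10 jejunum genes was also above the other kept barcodes of that library, against 4, 10 and 30 of the duodenum, cecum and colon genes.

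In the duodenum, 3 named genes met this call. PLA2G7, which inactivates platelet-activating factor, was at 115 (103 to 127) CPM in the duodenum and 47.8, 29.8 and 36 CPM in the jejunum, cecum and colon. CD36, a receptor for fatty acids and oxidized lipoproteins, was at 68.1 (59.5 to 77.5) CPM in the duodenum and 9.83, 31.2 and 22.5 CPM elsewhere. It was at 71.6, 9.86, 36.3 and 27.6 CPM without the clusters led by other lineages, under 2-fold between the duodenum and cecum. FABP1, a fatty acid carrier of enterocytes, was at 140.0 CPM in the duodenum and 40.0, 17.9 and 9.90 CPM elsewhere, but 76.3% of its duodenum UMIs came from 5 cells. It fell to 45.8, 15.2, 15.3 and 9.61 CPM without these clusters. The duodenum level was then still over 2-fold above each other segment, but FABP1 was no longer called for the small intestine. These 3 genes do not speak for the lipid list, in which other members were highest elsewhere. FABP5, a fatty acid carrier, was highest in the colon, at 309.9, 222, 248 and 428 CPM. TREM2, a lipid-sensing receptor, was at 247 CPM in the duodenum and 134, 123 and 104 CPM in the other segments, under the 2-fold limit.

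In the colon, GPNMB was broadly higher. This glycoprotein of lysosome-rich macrophages was at 302 (284 to 322) CPM in the duodenum, 95.6 (90.8 to 101) in the jejunum, 326 (284 to 372) in the cecum and 797 (746 to 852) in the colon. It was found in 14.2%, 7.35%, 22.3% and 42.3% of thinned members, against 0.0486% to 0.866% of CD3E-positive barcodes. The colon was thus the highest and the jejunum the lowest, and the duodenum and cecum intervals overlapped. LGALS3, a galectin of phagosomes, had the same order of colon and jejunum, at 673, 352, 525 and 1164 CPM. LGMN, a lysosomal protease, was also highest in the colon, at 679, 996, 1079 and 1762 CPM.

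Other named genes that singled out the cecum or colon came largely from few cells. In the cecum, lipoprotein lipase (LPL) was at 103 CPM against 0 to 1.80 CPM elsewhere, and it was at 0 in all segments without the clusters led by other lineages. S100A4 was at 543 CPM in the cecum and 2.09, 57.8 and 101 CPM in the duodenum, jejunum and colon. Without those clusters it was at 1.70, 3.69, 40.1 and 52.9 CPM, so that the cecum was no longer highest. Over 50% of the cecum UMIs of LPL, S100A4, TAP and CXCL3 came from 5 cells. TAP, the tracheal antimicrobial peptide, was at 78.8 CPM in the cecum and CXCL3, a neutrophil chemokine, at 129 CPM. Without those clusters they were at 87.9 and 120.4 CPM. In the colon, ADAMDEC1, a metalloprotease-like protein made by gut macrophages and fibroblasts, was at 1527 CPM against 1.79 to 10.8 CPM elsewhere, and at 8.41 CPM without these clusters. MGP, a matrix protein of connective tissue, was at 532 CPM in the colon and at 0 there without them.

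LPL, S100A4, ADAMDEC1 and MGP were high in the cluster of 166 members with monocyte and stromal genes. Its 17 cecum members had F13A1 at 2698 CPM, S100A4 at 4109 CPM and the collagen COL3A1 at 0. Its 17 colon members had ADAMDEC1 at 8213 CPM, MGP at 2879 CPM and COL3A1 at 1056 CPM. MGP was at 0 in these cecum members, and CSF1R was at 854 CPM in the cecum and 636 CPM in the colon members. The summed levels of these stromal genes thus differed between the segments, but COL3A1 was found in only 3.61% of the cluster. The colon levels of ADAMDEC1, MGP and COL3A1 therefore rest on few cells. Over all members, the 9 stromal markers summed to 516 CPM in the colon, with 1 of them at 0, and to 0 in the cecum, 1.19 CPM in the duodenum and 5.45 CPM in the jejunum. Their part in the other colon values was not tested.

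The same rule found 4848 barcodes in the NB duodenum, jejunum, cecum and colon, and these were compared with the AD members. All 4 AD libraries were higher than all 4 NB libraries in 16 of 4885 tested genes (0.328%), and all 4 NB libraries were higher in 86 (1.76%). NB members were deeper in most segments, with median depths of 8887, 8892, 11262.5 and 2712 UMIs. Of the 16 genes, 10 stood above the other kept barcodes of all AD libraries, and of the 86, 47 stood above those of the NB libraries.

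AD members had higher CXCL9 and a group of less studied genes. CXCL9 was at 238 to 4600.1 CPM in AD and 1.79, 7.28, 26.4 and 8.83 CPM in the NB duodenum, jejunum, cecum and colon. SMPDL3A, a phosphodiesterase related to acid sphingomyelinase, was at 217, 232, 184 and 194 CPM in AD and 72.3, 51.2, 66.2 and 27.8 CPM in NB members. GPR37, a G protein-coupled receptor, was at 47.8, 46.0, 75.9 and 61.2 CPM in AD and 17.5, 6.54, 1.56 and 5.30 CPM in NB members. CELF4, an RNA-binding protein, was at 40.3, 49.2, 69.9 and 27.9 CPM in AD and 8.76, 4.10, 4.67 and 3.53 CPM in NB members. In each of these 3 genes the lowest AD segment lay above the highest NB segment.

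Stress-induced transcripts were higher in NB members. Of the 19 immediate-early genes tested between stages, 16 were higher in all NB libraries, beside 1.76% of all 4885 tested genes. The list's median log2 difference was -3.09 (AD over NB), beside 0.01 over all tested genes. EGR1 was at 26.6, 20.6, 28.3 and 38.7 CPM in AD and 778, 851, 678 and 872 CPM in NB members. Of 14 heat shock genes, 10 were higher in all NB libraries, and the list's median was -2.25. DNAJB1, a co-chaperone of HSP70, was at 69.6, 68.2, 56.5 and 90.0 CPM in AD and 1114, 1409, 2704 and 1234 CPM in NB members. Stage and dissociation cannot be told apart here. Markers of other cell types moved with stage too. The 7 endothelial markers summed to 380, 676, 160 and 147 CPM in NB members and to 0.896, 17.2, 1.49 and 11.7 CPM in AD members, where 5, 0, 6 and 4 of them were at 0, and PLVAP and EGFL7 of the 3 tested were called higher in NB. The 9 stromal markers summed to 129, 715, 667 and 452 CPM in NB members and to 1.19, 5.45, 0 and 516 CPM in AD members. In the colon their sum was thus higher in AD. No clusters were removed from NB members, and the part of these cell types in the stage differences was not tested.

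Some inflammatory mediators were also higher in NB members. Of 18 tested chemokine genes, 5 were higher in all NB libraries and 2, CXCL9 and CXCL11, in all AD libraries. Over all 4885 tested genes the shares were 1.76% and 0.328%. GRO1, a neutrophil chemokine, was at 19.1, 18.9, 69.9 and 51.3 CPM in AD and 959, 1614, 1780.3 and 1017 CPM in NB members. TNF was at 37.6, 39.4, 14.9 and 34.2 CPM in AD and 446, 274, 282 and 549.6 CPM in NB members. Of 8 cytokine genes tested between large and small intestine, EBI3 was the only call, for the small intestine, beside 0.314% over all 4777 tested genes. TNF and IL1A were the 2 calls of 10 cytokine genes between stages, both higher in NB cattle. These few calls do not speak for the cytokine list.

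The level of CSF1R overlapped between the stages. It was at 1027, 944, 714 and 801 CPM in NB members, against the 705 to 878 CPM of AD members. None of 13 tissue macrophage markers, 23 lysosomal genes and 6 Fc receptor genes was called in either direction, which is near the shares of 0.328% and 1.76% over all tested genes. The Fc receptor list had a median log2 difference of 1.08 (AD over NB), beside 0.01 over all tested genes. FCGR3A, the activating receptor for bound IgG, was at 659, 839, 749.8 and 819 CPM in AD and 279, 116, 340.0 and 105 CPM in NB members, with the nearest libraries under 2-fold apart. CTSS was at 4192 to 4705 CPM in AD and 1413 to 2623 CPM in NB members. IRF8, a transcription factor of the monocyte and dendritic lineages, was at 160.3, 165, 162 and 149 CPM in AD members and at 16.7, 12.3, 123 and 10.2 CPM in NB members, where the cecum stood apart. The NB cecum thus lay near the AD range. APOE, a lipid carrier secreted by macrophages, went the other way in part, at 8927, 5429, 6158 and 7255 CPM in AD and 19883, 28657, 4652 and 28429.9 CPM in NB members.

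**Figure D5:**
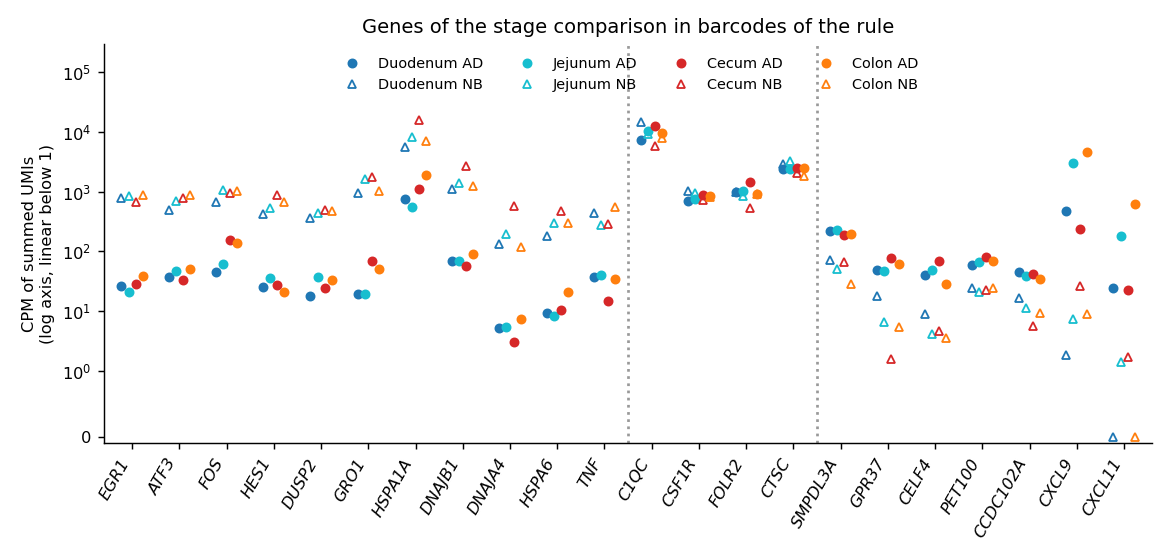
CPM (log axis, linear below 1) of genes of the stage comparison in AD (filled circles) and NB (open triangles) barcodes of the rule, by segment. The immediate-early and heat shock genes and TNF lie higher in NB, C1QC and CSF1R overlap, and SMPDL3A, GPR37, CELF4 and CXCL9 lie higher in AD.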

How the data were processed

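The authors processed the reads with Cell Ranger 3.1.0 against the cattle genome ARS-UCD1.2 and deposited raw UMI counts per gene and barcode, 27270 genes a library. The annotation release is not given in the sources used here. Of the genes, 7540 carried no symbol, the immunoglobulin genes among them. Where a symbol repeated, the later row carries its gene ID. The deposited counts of each library were filtered by genes and UMIs as given above, with no mitochondrial limit, and summed over members as CPM. Detection shares were taken after thinning each barcode that held at least 1000 UMIs to 1000 UMIs. The other kept barcodes of the same library were summed in the same way as a background.

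With 1 library per segment and stage, no test was run. A gene was called where its mean was at least 20 CPM, the nearest libraries of both sides differed at least 2-fold and their exact 95% intervals did not overlap. Log2 differences of lists use CPM plus a pseudocount of 5. Named genes were those of gene lists for macrophage functions, the first 12 called genes with a symbol for large and small intestine, the first 5 for a segment and the first 8 for a stage, ranked by the ratio between the nearest libraries and above the other kept barcodes. Members and lists were chosen with earlier results of these data known.

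Members were clustered with Leiden (leidenalg 0.10.2, igraph 0.11.9) at resolution 0.5 on 20 components of 1500 variable genes with 20 neighbors. Python 3.11.15, NumPy 2.4.6, SciPy 1.17.1, pandas 2.3.3, scikit-learn 1.9.0 and matplotlib 3.10.9 were used, with TMM factors from edgeR 4.0.16 in R 4.3.3 as an alternative scaling. The call was tested on simulated data. Gene order came from RefSeq for a later assembly, used only for neighbors. Alternatives covered the member rule, scaling, the expression limit and the fold. The ileum, rectum and other organs were not used here. The values of 1 gene of the interferon list are not reported here.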

Additional observations from a re-analysis of the deposited data

Results flagged for a closer look

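In 3 genes the AD and NB levels differed in opposite directions in the small and large intestine, and these differences were not tested. C3 had a mean log2 difference (AD over NB) of -1.95 in the duodenum and jejunum and 1.86 in the cecum and colon. Its AD level without the clusters led by other lineages was 1.91 CPM in the cecum and 16.8 CPM in the colon, against 38.7 and 77.4 CPM with them. PMP22 had -1.53 in the small and 2.02 in the large intestine, and its AD level did not fall without those clusters. The gene ENSBTAG00000001219, which carries no symbol, had 4.41 in the small and -3.99 in the large intestine. Its AD levels were 72.8, 251, 29.8 and 35.1 CPM, below those of the other kept barcodes, and 88.9% of its UMIs in 1 of the small intestinal libraries came from 5 cells. Without the clusters led by other lineages it was at 64.5, 27.2, 21.0 and 33.6 CPM.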

How the results depend on the processing

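Each call rests on 1 library per segment, so intervals say nothing of the spread between cows, and the cecum and colon rest on the fewest members. No paired analysis was run, because no test was: each segment and stage had 1 library. Asking for CSF1R left 726, 3219, 147 and 170 members in the duodenum, jejunum, cecum and colon. Asking for 3 UMIs of each C1q chain left 940 and 3936 in the duodenum and jejunum, allowing under 2 UMIs of other lineage markers left 4020 in the jejunum, and a wider marker set, chosen after seeing the data, left 936 and 3281 in these segments. With a limit of 5 CPM, 74 genes were higher in large and 23 in small intestine, and with 50 CPM 17 were higher in large intestine and 10 with the kit of the jejunum and colon. At 1.5-fold the counts were 75, 37 and 37 for large, small and kit, and 168 for stage. At 3-fold they were 18, 5, 10 and 65. Members with under 2 UMIs of other lineage markers gave 10 kit genes. Without the clusters led by other lineages, also chosen after seeing the data, the ratios of the nearest libraries were 0.840 for RNASE4 and 0.322 for C3, which reversed. These ratios rest on few UMIs of the 158 cecum members left, at 9.56 CPM for RNASE4 and 1.91 CPM for C3. The planned scaling without immunoglobulin genes could be run only without mitochondrial genes, because the files give immunoglobulin genes no symbol. A total without all genes that carry no symbol was added for this.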

Other observations

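A cluster of 61 members was led by defensin genes and kept its macrophage genes. DEFB4A, a beta-defensin, was at 6404 CPM in it, and C1QC at 10135 CPM and TIMD4 at 3572 CPM. DEFB1, DEFB10, TAP and LAP were other defensin genes at its head, but each was found in at most 21.3% of its members, whereas DEFB4A was found in 52.5%. Outside it, DEFB4A was found in 4.25% to 36.7% of the members of the remaining clusters.

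CD2, an adhesion receptor known from T cells, was found in 19.2%, 22.4%, 16.2% and 13.6% of AD members of the duodenum, jejunum, cecum and colon thinned to 1000 UMIs. In CD3E-positive barcodes the shares were 22.1%, 24.8%, 22.4% and 25.1%. CD3D, a chain of the T cell receptor complex, was near 0 in members, at 3.88, 4.76, 2.98 and 7.20 CPM. The rule left out barcodes with CD3E, so a low CD3D level was in part set by it. Of the CD2-positive members, 48.7%, 54.7%, 55.2% and 40.0% also held CSF1R. Among the members without CD2 the shares were close, at 44.0%, 49.0%, 50% and 51.1%, and higher in the colon. The CD2-positive sets of the cecum and colon held 29 and 30 members.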
